A study of Mus musculus with 29 samples.

Results

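Mouse induced pluripotent stem cells that lack both Mek1 and Mek2 (the library titled MEK DKO) were compared with embryonic stem cells (ESCs) kept in the same medium, serum with leukaemia inhibitory factor (S/L). The library was taken by its title and is 1 of the 29 libraries of the series; the comparison used 4 libraries, MEK DKO and the 3 of the group S/L p10. Reduced representation bisulfite sequencing was used, an assay of DNA methylation that reads CpG dinucleotides mainly in CpG-rich DNA. Per the labels, MEK DKO came from embryonic fibroblasts with a floxed Mek1 (Mek1fl/fl) and no functional Mek2 (Mek2-/-). They were reprogrammed with lentiviruses carrying M2rtTA and a doxycycline-inducible Oct4, Klf4, Sox2 and c-Myc cassette. A clone that no longer needed doxycycline received a Cre plasmid that deleted Mek1, and the cells were kept in S/L on irradiated fibroblast feeders. For context, 2i/L p10 (3 libraries; 2i/L is a medium with a Mek1/2 inhibitor, a Gsk3 inhibitor and LIF) and PD (1 library, line J-34; the usual short name of a Mek1/2 inhibitor) were set beside it. Each of 3 ESC lines (J-34, J-35, J-37) gave 1 library to 2i/L p10 and 1 to S/L p10. They entered their medium at passage 4 and stayed for 6 passages, as PD did for 6 passages. All 8 libraries are labelled male.

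MEK DKO is 1 library of 1 clonal line, so its values have no replicate and no test was made. No induced pluripotent line with Mek1 or Mek2 intact was compared here. The absence of Mek1/2, the origin from reprogrammed fibroblasts, the clone and the feeders therefore cannot be told apart. The labels give no passage number for MEK DKO, and the share of its reads that came from feeder cells was not tested.

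As background, Mek1 and Mek2 are the kinases that activate Erk1 and Erk2, the last step of the Ras cascade that receives signals from fibroblast growth factors. In mouse ESCs this cascade favours exit from the naive state, and Mek inhibitors are part of the media that hold cells in it. CpG methylation is copied onto new DNA by Dnmt1 with Uhrf1 and set anew by Dnmt3a and Dnmt3b. ESCs in S/L are highly methylated outside CpG islands, while ESCs in 2i/L are known for low methylation. At imprinted regions, the methylation that a germ cell set on 1 parental allele is normally kept for life, so that such a region carries methylated and unmethylated reads side by side.

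The 5 promoter windows below are shown because losses that are among the largest or the most complete at known genes fall in them. Each runs from 250 bases before to 50 bases after a RefSeq transcript start, on the gene's strand (RefSeq sequence, build GRCm38.p6). Capitals mark the CpGs measured in all 4 libraries. Plagl1 encodes a zinc-finger protein and is imprinted. The second Commd1 start lies inside Zrsr1, an imprinted gene within an intron of Commd1. Clcn4 encodes a chloride transporter, Rpl39l a ribosomal protein used mainly in testis, and Arpp21 a phosphoprotein known from brain.
Plagl1: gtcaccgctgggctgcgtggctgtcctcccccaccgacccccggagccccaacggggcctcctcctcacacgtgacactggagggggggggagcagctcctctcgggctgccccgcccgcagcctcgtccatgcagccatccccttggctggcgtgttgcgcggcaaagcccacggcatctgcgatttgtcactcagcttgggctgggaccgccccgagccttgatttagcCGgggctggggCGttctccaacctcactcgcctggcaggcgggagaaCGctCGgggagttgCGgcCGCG
Commd1, second start: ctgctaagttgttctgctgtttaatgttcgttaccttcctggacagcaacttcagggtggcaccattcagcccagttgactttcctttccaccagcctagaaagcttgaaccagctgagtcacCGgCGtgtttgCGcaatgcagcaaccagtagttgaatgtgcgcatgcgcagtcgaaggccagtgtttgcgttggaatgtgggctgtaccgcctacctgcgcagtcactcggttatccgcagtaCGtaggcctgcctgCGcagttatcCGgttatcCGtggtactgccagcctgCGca
Clcn4: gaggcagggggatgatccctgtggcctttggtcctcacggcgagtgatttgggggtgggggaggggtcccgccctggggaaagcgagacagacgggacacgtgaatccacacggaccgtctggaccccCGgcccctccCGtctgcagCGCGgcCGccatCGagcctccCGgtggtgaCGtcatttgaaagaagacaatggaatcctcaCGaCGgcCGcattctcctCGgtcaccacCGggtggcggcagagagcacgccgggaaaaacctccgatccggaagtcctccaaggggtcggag
Rpl39l: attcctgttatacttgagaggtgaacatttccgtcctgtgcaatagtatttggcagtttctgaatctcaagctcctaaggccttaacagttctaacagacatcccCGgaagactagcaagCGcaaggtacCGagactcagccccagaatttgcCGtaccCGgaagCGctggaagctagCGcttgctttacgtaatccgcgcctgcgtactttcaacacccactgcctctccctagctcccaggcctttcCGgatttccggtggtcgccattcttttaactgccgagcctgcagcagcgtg
Arpp21: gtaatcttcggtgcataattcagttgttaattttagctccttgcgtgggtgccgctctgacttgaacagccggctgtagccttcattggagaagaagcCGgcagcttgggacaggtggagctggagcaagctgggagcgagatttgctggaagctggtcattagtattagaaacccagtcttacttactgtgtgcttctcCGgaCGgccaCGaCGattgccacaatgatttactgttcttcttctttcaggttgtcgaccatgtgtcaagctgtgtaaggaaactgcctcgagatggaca

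The targeted genes were read first, as far as covered CpGs allow. Within the Map2k1 gene (Mek1), 3 CpGs lying 40.9 to 41.1 kb past the start had 0 calls in MEK DKO. A call is 1 read at 1 CpG, so a read that covers several CpGs gives several calls. The same CpGs held 20, 13 and 10 calls in 2i/L p10 (J-34, J-35, J-37), 23 calls in PD and 10, 14 and 7 calls in S/L p10. Those CpGs are shallow in every library, and 3.13% of the 962019 autosomal CpGs with 10 or more summed S/L p10 calls had no MEK DKO call. With 10 or more in each S/L p10 library it was 0.262%, and the share at the depth of these 3 CpGs was not counted. The CpGs at 40.92 and 40.94 kb had the same counts in every library, so they may rest on the same reads. The remaining 5 Map2k1 CpGs beyond the first 1 kb, and all 9 such CpGs of Map2k2 (Mek2), were covered in MEK DKO. The labels do not give which part of either gene is deleted, so these CpGs check the genotype only in part. Within 1 kb of the starts, methylation was near 0 in both genes. Around the Map2k1 start MEK DKO had 0% over 31 CpGs (33 reads at the deepest CpG, which allow up to 9.09%), against 0.617%, 0.202% and 0.262% in S/L p10. Around the Map2k2 start MEK DKO had 0.724% over 41 CpGs, against 0.179%, 0.431% and 0.173% in S/L p10.

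MEK DKO was far less methylated than S/L p10, and the highly methylated CpGs were nearly gone. Over 646767 autosomal CpGs with 5 or more reads in all 4 libraries, the mean CpG level was 8.38% in MEK DKO, against 28.6%, 28.8% and 28.4% in the S/L p10 libraries (J-34, J-35 and J-37, an order kept below). The S/L p10 mean was 28.6% ± 0.166 (SD, n = 3), and the difference was -20.2 percentage points. A share of 0.408% of CpGs stood at 80% or more in MEK DKO, against 20.7% ± 0.267 (SD, n = 3) in S/L p10. CpGs without any methylated read made up 63.9% in MEK DKO and 55.6% ± 0.542 in S/L p10. The share between 20% and 80% was 15.7% in MEK DKO and 15.5% ± 0.240 in S/L p10, so this middle class was no larger in MEK DKO. The inhibitors differed in that: over CpGs shared by all 8 libraries it held 15.3% of CpGs in MEK DKO, 21.3% ± 0.392 in 2i/L p10, 22.3% in PD and 15.3% ± 0.243 in S/L p10.

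Depth was similar: 14350991 calls in MEK DKO and 10864043, 12157684 and 10296723 calls in S/L p10. A 1 kb bin held a median of 76 calls in MEK DKO and 57, 63 and 53 calls in S/L p10. Since the CpGs of a bin often share reads, the reads at its deepest CpG are the safer measure, with a median of 24 in MEK DKO and 18, 20 and 17 in S/L p10. Wilson 95% intervals and limits for a share of 0 are therefore given with the reads at the deepest CpG of a region, and they cover counting error only. Chromosome 13 carried 1.46 times its S/L p10 share of calls in MEK DKO, while the other autosomes stood between 0.947 and 1.00 times. Chromosome Y had 58 covered CpGs in MEK DKO, although the library is labelled male, against 229, 222 and 223 in S/L p10. What either means for the methylation values was not tested, but the difference of the mean level was -20.2 points also without chromosome 13.

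**Figure D1:**
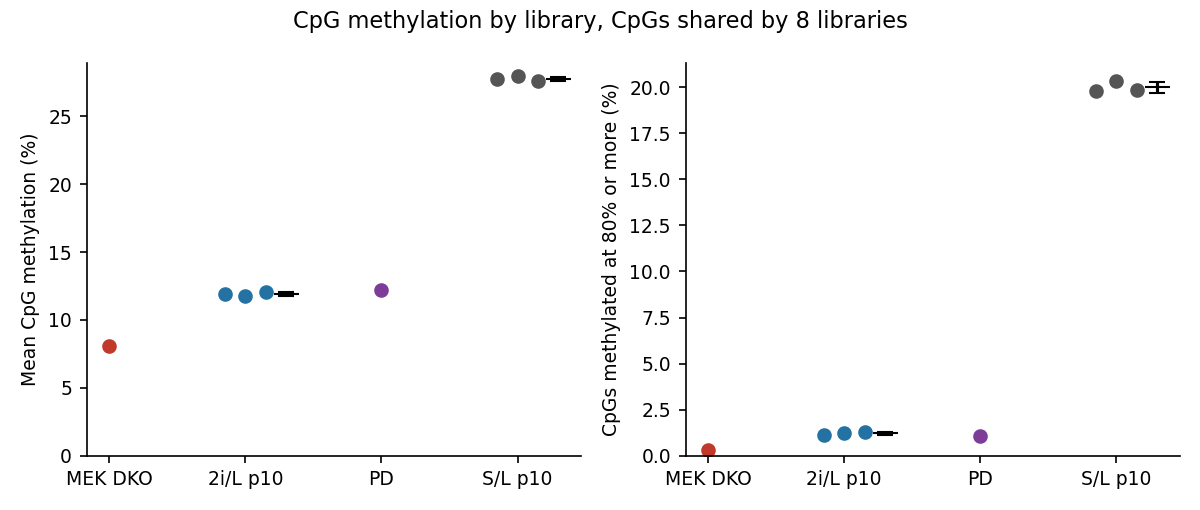
Mean CpG methylation (left panel, %) and the share of CpGs at 80% or more (right panel, %) per library over 600939 autosomal CpGs with 5 or more reads in all 8 libraries. Each point is a library, the black marks are means ± SD of 3 libraries; MEK DKO lies at 8.07%, below 2i/L p10 at 11.9%, PD at 12.2% and S/L p10 at 27.8%.

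Reads were then summed in bins of 1 kb with 3 or more such CpGs, which gave 60793 autosomal bins with a median of 4 CpGs. A bin was called lower or higher in MEK DKO when it lay at least 20 points from the S/L p10 mean and outside all 3 S/L p10 libraries. By this rule 33875 bins were lower, 55.7% of those compared, and 3 were higher, 0.00493%. The share of lower bins was 33.3% with 10 or more reads per CpG, 8.38% with 20 or more, and 29.5% in bins of 5 or more CpGs. These settings also changed which bins were compared, so the shares are not of the same bins. Bins at 50% or more in each S/L p10 library numbered 28332 of 60793 in the main setting. With 10 or more reads they numbered 7062 of 26568, and 8843 bins were lower. With 20 or more reads they numbered 64 of 1002, and 84 bins were lower. In bins of 5 or more CpGs they numbered 6756 of 29902, and 8833 bins were lower. For scale, the 3 S/L p10 libraries spanned a median of 5.65 points per bin, and 6.05% of bins spanned 20 points or more. No bin under 20% in S/L p10 can be called lower. Among the 35117 bins at 20% or more, 96.5% were lower. In the lower bins the median level was 19.4% in MEK DKO and 82.7% in S/L p10.

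The loss was broad rather than confined to a class of bins. In the 28332 bins at 50% or more in each S/L p10 library, 28203 were lower in MEK DKO (99.5%). Their share of methylated calls was 23.9% in MEK DKO and 81.9%, 82.6% and 81.8% in S/L p10. MEK DKO thus kept 29.1% of the S/L p10 share. The bins differed widely among themselves: the 5th, 25th, 50th, 75th and 95th percentiles of the MEK DKO level were 6.0%, 14.5%, 22.5%, 32.0% and 48.8%. Of these bins, 3684 (13%) had fallen to 10% or less, and 1334 (4.71%) remained at 50% or more.

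**Figure D2:**
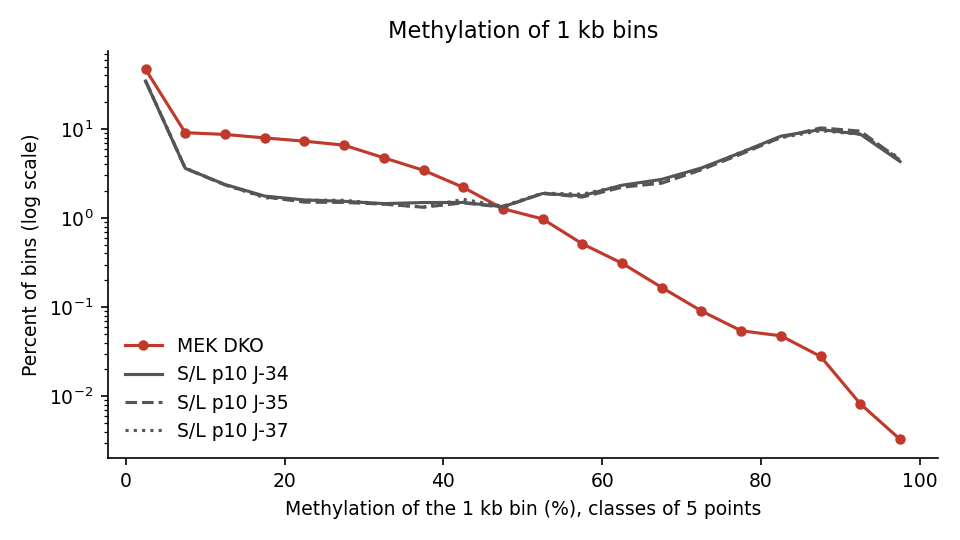
Percent of the 60793 autosomal 1 kb bins (log scale) in classes of 5 methylation points, for MEK DKO (points) and each S/L p10 library (lines). In S/L p10 the bins peak at 0 to 5% and again at 85 to 90%, where 9.82%, 10.3% and 9.55% of bins lie; MEK DKO has no second peak and 0.0280% of bins in that class.

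The level in MEK DKO was higher where S/L p10 was higher. The kept share was lowest in bins at 40 to 50% in S/L p10 and higher on both sides of them. Bins of more than 1000 MEK DKO calls (434 bins), which sway shares of calls, were left out of this view. Bins at 1 to 5% in S/L p10 had 0.786% in MEK DKO, 35.4% of the S/L p10 share, and bins at 5 to 10% had 1.97% in MEK DKO, 27.6% of it. Bins at 20 to 30% in S/L p10 had 5.26% in MEK DKO, which is 21.2% of the S/L p10 share. Bins at 50 to 60% had 10.9% in MEK DKO, 19.7% of that share. At 80 to 90% the MEK DKO level was 24.7%, 28.8% of the share, and at 90 to 100% it was 34.4%, 37.1% of it. A level of 50% or more in MEK DKO was found in 0.0929% of bins at 50 to 60% in S/L p10, in 2.39% at 80 to 90% and in 14.95% at 90 to 100%.

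CpG number made less difference. In bins at 50% or more in each S/L p10 library, those of 3 CpGs had 24.6% in MEK DKO and 83.1% in S/L p10. Bins of 5 to 6 CpGs had 22.9% in MEK DKO and 81.5% in S/L p10, and the 42 bins of 15 or more CpGs had 18.4% in MEK DKO and 73.0% in S/L p10. The kept share was 29.6%, 28.1% and 25.2% in these classes. The denser bins also started lower, so number of CpGs and starting level were not separated.

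Whole autosomes differed little in the MEK DKO level, while windows of 5 Mb differed more. Single autosomes other than chromosome 13 had 22.6% to 25.5% in MEK DKO in bins at 50% or more, and chromosome 13, with its higher read share, had 24.2%. In 364 windows of 5 Mb that held 20 or more such bins, the median MEK DKO bin ran from 13.2% to 31.0%, with 17.9% and 27.4% as the 5th and 95th percentiles. The S/L p10 level of these windows was not compared, and the part of counting error in their range was not tested. Chromosome X was described apart, with 429 bins of which 95 were lower and 0 higher. Its 74 bins at 50% or more in each S/L p10 library had a median of 18.6% in MEK DKO and 83.6% in S/L p10.

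**Figure D3:**
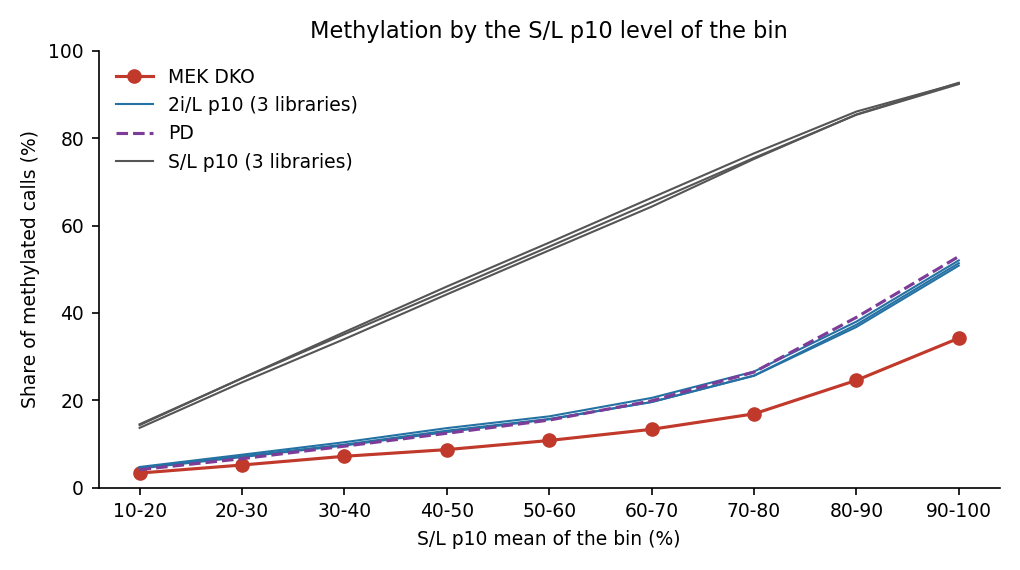
Share of methylated calls (%) in autosomal bins grouped by their S/L p10 mean (%), for MEK DKO, each 2i/L p10 library, PD and each S/L p10 library. In the class of 90 to 100%, MEK DKO stands at 34.2%, 2i/L p10 at 50.8 to 52.0%, PD at 52.9% and S/L p10 at 92.4 to 92.7%.

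The 10 bins with the widest gap below the nearest S/L p10 library, among those with 30 or more calls in each of the 4 libraries, fell to between 0% and 8.57% in MEK DKO. Coordinates are mm9, from the first to the last CpG. The widest was chr3:66900844-66900859 (3 CpGs), with 0 of 42 calls methylated in MEK DKO, from 14 reads at its deepest CpG, which allows a share of up to 21.4%. It had 60%, 62.5% and 64.3% in 2i/L p10, 41.0% in PD and 100%, 97.4% and 92.3% in S/L p10. MEK DKO lay below all 7 other libraries there. No mm9 annotation was used, so bins are placed by the nearest promoters located in the files; here these were Rsrc1 at 111 kb and Mlf1 at 277 kb.

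A further one, chr7:6630150-6630934 (6 CpGs), lay 19 kb from the promoter of Zim1, an imprinted zinc-finger gene next to Peg3. It had 3.70% in MEK DKO (Wilson 95% interval 0.690 to 17.5%), 27.2%, 29.9% and 36.5% in 2i/L p10, 22.3% in PD and 91.0%, 90.3% and 91.8% in S/L p10. On chromosome 19, chr19:9290847-9290863 (4 CpGs) had 2.5% in MEK DKO, 53.6%, 55.4% and 58.3% in 2i/L p10, 54.1% in PD and 92.9%, 88.9% and 92.9% in S/L p10. Both bins were picked for the gap between MEK DKO and S/L p10. The inhibitor libraries lay between them without overlap. Since the pick set MEK DKO very low and S/L p10 very high, almost any further library would lie between them. How many of all bins show this order was not counted. The other 7 bins had 2.86% to 8.57% in MEK DKO and 88.1% to 100% in single S/L p10 libraries.

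At the other end, a small set of bins lost less methylation. Of 9424 bins at 80% or more in each S/L p10 library with 30 or more calls in each, 606 (6.43%) were at 50% or more in MEK DKO, 10 were at 80% or more and 49 were at 5% or less. The highest was chr9:12138306-12138348 (6 CpGs), with 88.2% in MEK DKO (Wilson 95% interval 62.9 to 97.1%), 94.0%, 97.8% and 94.4% in 2i/L p10, 94.0% in PD and 94.7%, 98.6% and 96.1% in S/L p10. Its nearest located promoters, Cntn5 and Sesn3, were over 1000 kb away. The bin chr1:44352427-44352446 (6 CpGs) had 80.6% in MEK DKO, 93.8%, 91.7% and 97.2% in 2i/L p10, 88.1% in PD and 97.6%, 100% and 100% in S/L p10. In chr13:62582697-62582738 (4 CpGs) MEK DKO, at 86.0%, lay within the S/L p10 libraries at 100%, 95.6% and 84.6%. The bin chr16:76529435-76529758 (5 CpGs) had 82.2% in MEK DKO (Wilson 95% interval 62.9 to 92.6%), 73.1%, 72.2% and 80.4% in 2i/L p10, 75.9% in PD and 95.9%, 97.1% and 94.6% in S/L p10. That interval includes every inhibitor value, so MEK DKO was not detectably higher than the inhibitor libraries there. These bins were picked as the highest of many, and no second MEK DKO library was at hand to measure them again.

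The 3 bins called higher rest on 53 to 58 MEK DKO calls each, and on 14 to 25 reads at their deepest CpG. The largest rise was at chr1:168084112-168084729 (3 CpGs), 84.8 kb from the promoter of Mael, a gene of transposon silencing in germ cells, and 151 kb from that of Pou2f1. It had 42.6% in MEK DKO (23 of 54 calls; Wilson 95% interval 25.5 to 61.7%), 0%, 0% and 2.78% in 2i/L p10, 3.77% in PD and 17.9%, 5.71% and 20.7% in S/L p10. MEK DKO was the highest of the 8 libraries, and the inhibitor libraries were the lowest. With 28 and 29 calls in J-34 and J-37 of S/L p10 the bin lies outside the rule for named bins, and it was named after its value was seen because so few bins rose. The next bin to the right, chr1:168090588-168090974 (9 CpGs), had 30.7% in MEK DKO, 3.31%, 6.02% and 3.16% in 2i/L p10, 2.04% in PD and 21.6%, 13.8% and 21.4% in S/L p10. That is the same order of groups, with a difference from S/L p10 of 11.7 points, below the threshold. The other 5 bins within 30 kb were lower in MEK DKO than in each S/L p10 library: chr1:168057219-168057301 had 1.52% in MEK DKO and 22.0%, 35.5% and 26.5% in S/L p10, and chr1:168113294-168113371 had 30.2% in MEK DKO and 88.2%, 91.5% and 87.8% in S/L p10.

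The second rise, chr7:31757687-31757877 (4 CpGs), lay 0.801 kb from the promoter of Lsr, a lipoprotein receptor of epithelial junctions. It had 22.4% in MEK DKO (Wilson 95% interval 9.54 to 44.2%), 11.5%, 2.27% and 22.0% in 2i/L p10, 1.64% in PD and 2.56%, 0% and 0% in S/L p10, so 1 of the 2i/L p10 libraries was nearly as high as MEK DKO. The remaining rise, chr9:77263848-77263912 (4 CpGs), had 34% in MEK DKO (Wilson 95% interval 15.2 to 59.7%), 29.5%, 35.4% and 19.4% in 2i/L p10, 21.4% in PD and 12.5%, 9.52% and 18% in S/L p10. That interval includes the highest S/L p10 level, so the rise was not detectable at this depth. The rises depended on the way bins were made: 0 bins were called higher when CpG levels were averaged in place of summed calls, and 1, which overlapped one of the 3, when bins were shifted by 500 bases. Just inside the threshold the last bin differed from S/L p10 by 20.6 points, and just outside it chr3:141594305-141594420 (3 CpGs) differed by 18.2 points, with 20.5% in MEK DKO and 2.63%, 0% and 4.35% in S/L p10.

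The inhibitor libraries give the context. All values below share the S/L p10 libraries as the group set against, and are given side by side. In 25419 bins at 50% or more in each S/L p10 library and covered in all 8 libraries, the share of methylated calls was 23.8% in MEK DKO, 36.3%, 36.1% and 37.1% in 2i/L p10, 37.2% in PD and 81.8%, 82.5% and 81.8% in S/L p10. MEK DKO was below each 2i/L p10 library in 71.5% of these bins and above each in 3.99%. By the same rule of 20 points, 5244 of 56497 bins (9.28%) were lower in MEK DKO than in 2i/L p10 and 30 (0.0531%) were higher. Against the single PD library, 6863 bins (12.1%) were lower in MEK DKO and 56 (0.0991%) were higher; with 1 library on each side, counting error enters these counts more.

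A bin can be lower than 2i/L p10 by this rule only where 2i/L p10 is at 20% or more. The medians of the lower bins were 21.4% in MEK DKO, 48.2% in 2i/L p10, 45.8% in PD and 88.7% in S/L p10. Of 12737 bins at 80% or more in each S/L p10 library, 1006 (7.90%) were still at 50% or more in MEK DKO, against 36.1%, 34.5% and 37.4% in 2i/L p10 and 40.7% in PD. In those 1006 bins the medians were 55.8% in MEK DKO, 65.3% in 2i/L p10, 66.7% in PD and 93.0% in S/L p10. In the 111 such bins where MEK DKO was at 5% or less, they were 3.45% in MEK DKO, 25.6% in 2i/L p10, 28.3% in PD and 88.3% in S/L p10. Relative to 2i/L p10, MEK DKO stood at 71.7% of the level in bins of 20 to 30% in S/L p10 and at 66.6% in bins of 90 to 100%.

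Among the bins with the widest gap below 2i/L p10, chr4:155510128-155510993 (8 CpGs) had 6.56% in MEK DKO (Wilson 95% interval 1.69 to 22.2%), 69.6%, 81.5% and 68.0% in 2i/L p10, 74.4% in PD and 90.9%, 96.2% and 95.4% in S/L p10. In chr10:27545555-27545569 (3 CpGs), 0 of 30 MEK DKO calls were methylated, from 10 reads at the deepest CpG, which allows up to 30%, against 64.7%, 84.8% and 70% in 2i/L p10, 71.1% in PD and 82.9%, 84.8% and 86.1% in S/L p10. The gap below 2i/L p10 follows from how both bins were picked. PD also lay far above MEK DKO in both, but a pick for a very low MEK DKO level favours that order as well. In the bin on chromosome 4 each inhibitor library lay below each S/L p10 library. Of the 30 bins higher in MEK DKO than in 2i/L p10, 26 were still below each S/L p10 library. In chr17:35283767-35283804 (4 CpGs) the levels were 59.6% in MEK DKO, 29.4%, 28.6% and 40.5% in 2i/L p10, 35% in PD and 72.7%, 70% and 79.6% in S/L p10.

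Promoters were described where the CpG spacing of a RefSeq promoter sequence could be placed uniquely among the covered CpGs of its chromosome. This located 6041 sequences of 5528 genes, or 4591 autosomal promoter regions with 3 or more measured CpGs after overlapping windows were merged; promoters on chromosome 18 were not analysed here. A placement needed 8 or more covered CpGs in the window, so CpG-poor promoters were left out. The shares below hold for CpG-dense promoters only. Most of these had no methylation to lose: 4433 regions (96.6%) were under 5% in S/L p10, and none of the 4433 exceeded 5.56% in MEK DKO. By the bin rule, 41 regions (0.893%) were lower in MEK DKO and 0 (0%) were higher. With the looser placement at 6 covered CpGs, 109 of 5298 regions (2.06%) were lower. With 10 or more reads per CpG, 25 of 2990 (0.836%) were lower. In the 49 regions at 20% or more in S/L p10, MEK DKO lay below each S/L p10 library in all 49, and 41 of them (83.7%) were called lower. Their medians were 6.48% in MEK DKO, 11.8% in 2i/L p10, 10.7% in PD and 41.9% in S/L p10. MEK DKO was at 5% or less in 19 of them and at 20% or more in 7, and it was below each 2i/L p10 library and PD in 29.

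**Figure D4:**
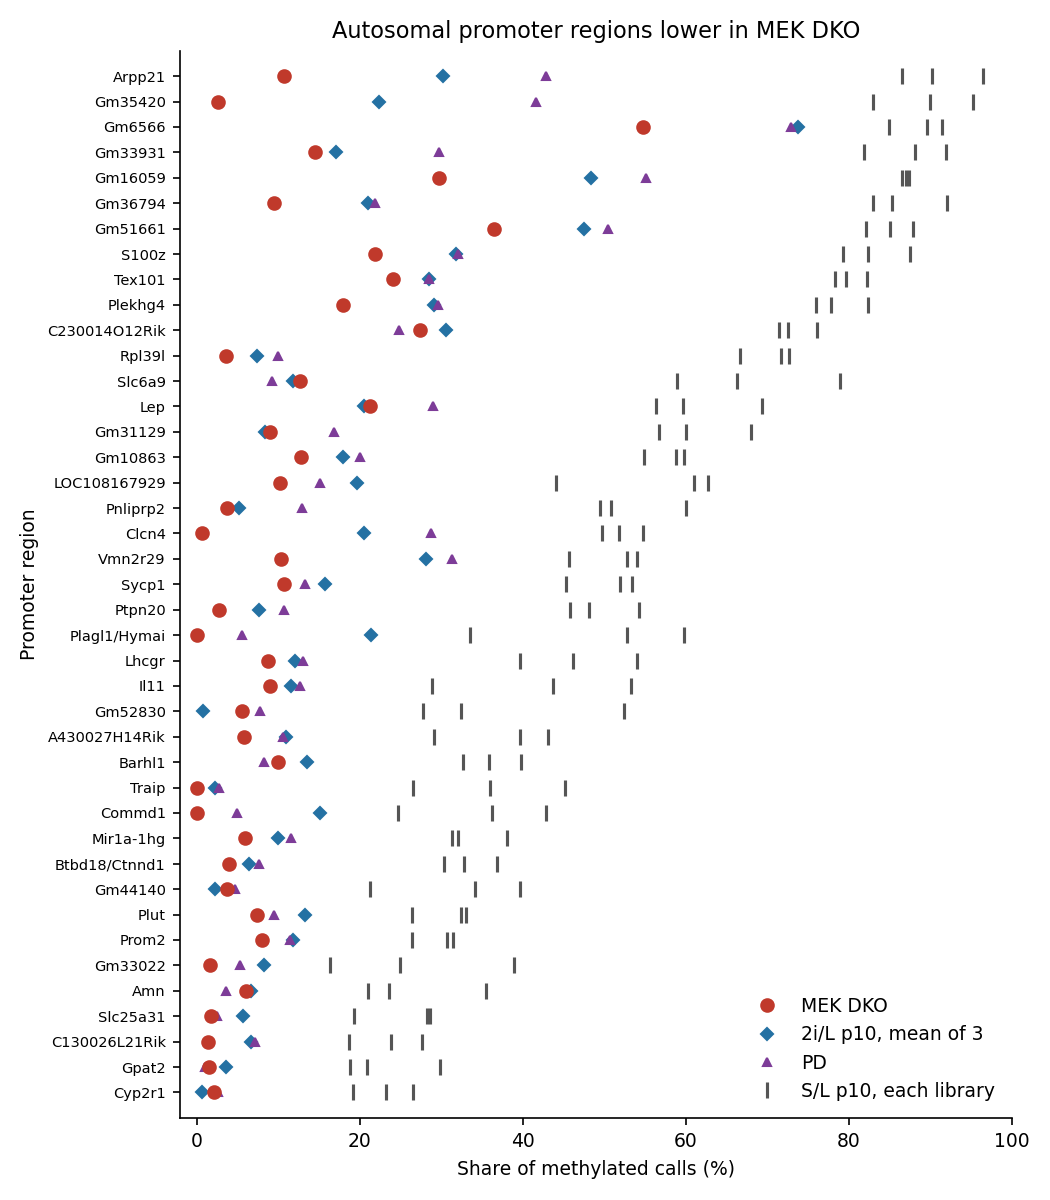
Share of methylated calls (%) in the 41 autosomal promoter regions lower in MEK DKO, one row per region ordered by the S/L p10 mean, for MEK DKO (circles), the 2i/L p10 mean of 3 libraries (diamonds), PD (triangles) and each S/L p10 library (ticks). The MEK DKO circles lie between 0% (Plagl1/Hymai, Traip and the second Commd1 start) and 54.8% (Gm6566), left of every S/L p10 tick of their row.

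Of the windows printed above, Arpp21 had the widest gap below S/L p10 among the named promoters. Over 5 CpGs (chr9:112090306-112090421, mm9) it had 10.7% in MEK DKO (8 of 75 calls), 18.99%, 34.1% and 37.5% in 2i/L p10, 42.9% in PD and 86.5%, 96.5% and 90.2% in S/L p10. The difference from S/L p10 was -80.4 points, and no other library came as low. Rpl39l (8 CpGs, chr16:10170176-10170320) had 3.65% in MEK DKO, 9.56%, 5.88% and 6.72% in 2i/L p10, 10.0% in PD and 71.7%, 66.7% and 72.7% in S/L p10. Here the inhibitor libraries were nearly as low as MEK DKO. All 8 Rpl39l CpGs were lower in MEK DKO than in each S/L p10 library, the single CpGs running from 0% to 6.67% in MEK DKO and from 33.3% to 100% in S/L p10.

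Clcn4 was the most deeply read of these in MEK DKO, with 69 reads at its deepest CpG. Its depth was unequal, with 634 calls in MEK DKO, 1465, 1182 and 1080 in 2i/L p10, 1629 in PD and 756, 1122 and 867 in S/L p10. Over 13 CpGs (chr7:7252281-7252389), 4 of 634 calls were methylated in MEK DKO, or 0.631% (Wilson 95% interval 0.0588 to 6.41%), against 20.1%, 20.9% and 20.4% in 2i/L p10, 28.7% in PD and 51.9%, 54.7% and 49.7% in S/L p10. The 3 sets did not overlap, with MEK DKO near 0, though Clcn4 was picked for its gap below S/L p10. Of its 13 CpGs, 12 were lower in MEK DKO than in each S/L p10 library; the exception, at position -73 from the start, was 0%, 0% and 6.67% in S/L p10. Vmn2r29, a vomeronasal receptor gene placed nearby (8 CpGs, chr7:7230955-7231201), had 10.4% in MEK DKO, 24.1%, 31.8% and 28.6% in 2i/L p10, 31.4% in PD and 45.6%, 52.8% and 54% in S/L p10. Its depth was unequal, with 723 calls in MEK DKO, 336, 311 and 252 in 2i/L p10, 373 in PD and 103, 127 and 113 in S/L p10. The gene belongs to a large family of similar copies, so its value is uncertain.

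Other promoters among the 10 widest gaps belonged to S100z, a calcium-binding protein, Tex101, a surface protein of germ cells, Plekhg4, and the RefSeq loci Gm36794, Gm33931, Gm16059 and Gm31129. Their MEK DKO levels ran from 8.97% to 29.7% and their S/L p10 means from 61.6% to 87.3%. Gm6566 kept the most, with 54.8% in MEK DKO (23 of 42 calls, from 9 reads at the deepest CpG), 65.8%, 83.3% and 72.2% in 2i/L p10, 72.9% in PD and 91.5%, 89.6% and 84.9% in S/L p10. Lep, the gene of leptin, was among the regions where MEK DKO lay within the range of the inhibitor libraries: it had 21.3% in MEK DKO, 15.7%, 21.6% and 24.1% in 2i/L p10, 29% in PD and 59.7%, 69.3% and 56.3% in S/L p10.

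Imprinted genes were followed by a list of 43 genes at germline-set imprints; 11 were located, in 11 regions, of which 2 were lower and 0 higher. These 2 were the only located members at 20% or more in S/L p10, a level at which 83.7% of all promoter regions were lower. Of the other 9, 8 were under 5% in S/L p10. The regions lie at transcript starts, and whether each holds the imprinted stretch of its gene was not checked. The 2 lower regions hold the Plagl1 and second Commd1 windows printed above. The Plagl1 region was merged with that of Hymai, and 7 of its 9 CpGs lie in the printed window. Those 7 had 0% in MEK DKO, 23.9%, 12.9% and 19.4% in 2i/L p10, 3.88% in PD and 53.5%, 33.0% and 68.4% in S/L p10. Plagl1 (with Hymai, 9 CpGs, chr10:12810619-12810699) had 0 of 195 calls methylated in MEK DKO, from 39 reads at the deepest CpG, which allows up to 7.69%, against 21.9%, 18.8% and 23.3% in 2i/L p10, 5.56% in PD and 52.8%, 33.6% and 59.8% in S/L p10. With 1 kb added on each side (32 CpGs) it had 0% in MEK DKO, 22%, 20% and 21.9% in 2i/L p10, 9.92% in PD and 52.9%, 41.3% and 55.2% in S/L p10. No methylated call was seen in MEK DKO over either stretch, and every other library had some.

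The second Commd1 start, inside Zrsr1 (8 CpGs, chr11:22872819-22872992), had 0 of 98 calls methylated in MEK DKO, from 24 reads at the deepest CpG, which allows up to 12.5%, against 15.7%, 18.3% and 11.4% in 2i/L p10, 4.93% in PD and 42.9%, 24.7% and 36.3% in S/L p10. Over 34 CpGs with 1 kb on each side the levels were 0.765% in MEK DKO, 18.8%, 20.5% and 21.3% in 2i/L p10, 4.81% in PD and 36.5%, 34.2% and 43.9% in S/L p10. The first Commd1 start, with 1 kb on each side, had 0.505% in MEK DKO and 0%, 0.495% and 0% in S/L p10. At the Plagl1 region and the second Commd1 start PD lay between MEK DKO and 2i/L p10. The promoter of Mcts2, an imprinted retrogene, had 0.893% in MEK DKO, 9.32%, 18.1% and 6.90% in 2i/L p10, 0% in PD and 22.9%, 31.7% and 5.19% in S/L p10. Mcts2 was not called: the S/L p10 libraries themselves lay wide apart, and the difference from their mean of 19.9% was -19.02 points. With 1 kb on each side (9 CpGs) Mcts2 met the rule, with 0.763% in MEK DKO and 23.1%, 32.5% and 6.98% in S/L p10. The share of all promoter regions that meet it at that width was not counted.

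Germline genes, whose promoters are usually methylated outside germ cells, made up a list of 52. Of these, 11 were located, in 10 regions, with 3 lower and 0 higher. The 3 lower regions were again the only ones at 20% or more in S/L p10, to be read against the 83.7% of all such promoter regions that were lower. Tex101 (4 CpGs, chr7:25457025-25457049) had 24.1% in MEK DKO, 32.4%, 27.1% and 25.9% in 2i/L p10, 28.5% in PD and 82.3%, 79.7% and 78.3% in S/L p10. Sycp1, a rod of the meiotic chromosome pairing structure (5 CpGs, chr3:102740071-102740119), had 10.7% in MEK DKO, 15.3%, 13.6% and 18.4% in 2i/L p10, 13.3% in PD and 51.9%, 53.4% and 45.3% in S/L p10. Slc25a31, the testis form of the mitochondrial ADP/ATP carrier (4 CpGs, chr3:40512596-40512781), had 1.69% in MEK DKO, 10.7%, 6.25% and 0% in 2i/L p10, 2.47% in PD and 28.3%, 19.4% and 28.6% in S/L p10. For these 3 genes MEK DKO was near the inhibitor libraries and far below S/L p10. Hormad1 and Hormad2 (axis proteins of meiotic chromosomes), Dmrtb1 (a regulator of spermatogonia) and Mael were at 14.1% to 19.6% in S/L p10 and between 0% and 3.11% in MEK DKO, too low in S/L p10 for a call. With 1 kb on each side, Hormad1, Hormad2 and Meioc, a meiotic RNA regulator, met the rule. Hormad1 then had 1.75% in MEK DKO and 30.7%, 18.1% and 24.9% in S/L p10. Hormad2 had 0% in MEK DKO (33 reads at the deepest CpG, which allow up to 9.09%) and 26.8%, 24.5% and 12.3% in S/L p10. Meioc had 3.81% in MEK DKO and 24.7%, 25.7% and 21.7% in S/L p10. How many of all promoter regions meet the rule at that width was not counted, so these calls say nothing about the list as such.

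The promoters of other lists gave almost nothing to compare, because they were unmethylated in every group. The located regions numbered 2 for pluripotency genes, 5 for the DNA methylation machinery, 6 for the Ras/Mek/Erk pathway, 6 for Erk target genes, 5 for fibroblast genes and 4 for trophoblast genes. None of them was called in either direction, their MEK DKO levels ran up to 1.97% and their S/L p10 means up to 1.28%. None of the 12 genes of the 2-cell stage was located. The cell type of MEK DKO therefore could not be checked by marker promoters here: those of fibroblast genes were at 0.216% or less in MEK DKO and at 0.952% or less in S/L p10.

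On chromosome X, 65 promoter regions were described and 2 were lower. Pgk1, a glycolytic enzyme (7 CpGs, chrX:103382438-103382481), had 1.52% in MEK DKO, 10.4%, 8.51% and 12.5% in 2i/L p10, 6.44% in PD and 46.1%, 41.9% and 50.9% in S/L p10. Its depth was unequal as well, with 132 calls in MEK DKO, 1242, 870 and 994 in 2i/L p10, 1367 in PD and 612, 833 and 831 in S/L p10. The shared region of Gm35790 and 1700080O16Rik had 22.2% in MEK DKO, 46.7%, 42.1% and 39.5% in 2i/L p10, 43.5% in PD and 92.9%, 84.2% and 83.9% in S/L p10. Ubl4a went the other way below the threshold, with 5 of 40 calls methylated in MEK DKO (12.5%; Wilson 95% interval 2.24 to 47.1%), 2.5%, 0% and 0% in 2i/L p10, 1.25% in PD and 0% in each S/L p10 library; it is named after its value was seen.

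**Figure D5:**
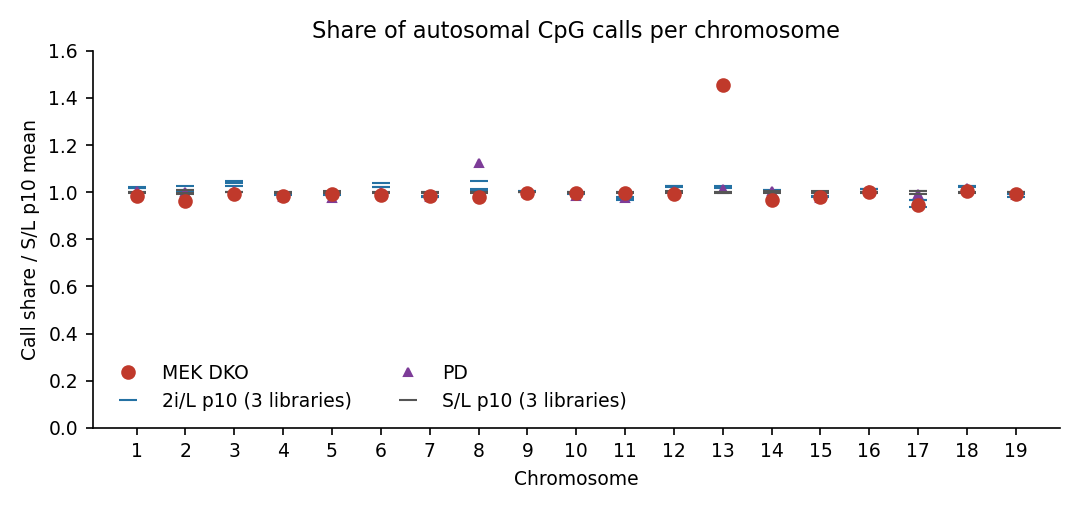
Share of autosomal CpG calls on each chromosome divided by the mean share in S/L p10 (a ratio, no unit), for MEK DKO, each 2i/L p10 library, PD and each S/L p10 library. MEK DKO stands at 1.46 on chromosome 13 and between 0.947 and 1.00 elsewhere, and the 2i/L p10 and PD libraries stand between 1.01 and 1.02 on chromosome 13. PD stands at 1.12 on chromosome 8.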

How the data were processed

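Per the submitters' processing notes, reads were processed with BSMAP 2.89 on mouse build mm9; for trimming, read filters and conversion, nothing is stated here. Each deposited list gives, per CpG, methylated over total reads as 1 text field (other) and a score, which equals 1000 times the methylated share, cut to a whole number, at all CpGs of the 8 files read. Nothing in the files shows normalization or pooling of replicates. Conversion was done on pools of 12 barcoded reactions, per the labels' protocols.

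CpGs with 5 or more reads in all libraries compared were kept and summed in 1 kb bins of 3 or more CpGs (Python 3.11.15, pandas 2.3.3). Calls need 20 points and lie outside all libraries of the other group; with 1 MEK DKO library nothing was tested. The files count a read once at each CpG it covers, so Wilson 95% intervals and limits for 0 (3 counts) use the reads at the deepest CpG of a region. They cover counting error only, since reads carry no molecular identifiers. Promoters were placed by CpG spacing, with no coordinate taken from another build. A unique placement with 6 or more covered CpGs was planned; it gave 7542 sequences, but 1231 also on a wrong chromosome. The minimum was therefore raised to 8 after the data were seen (6041 sequences, 5 on a wrong chromosome). Calls and placement were tested on simulated data. Named bins are the 10 widest gaps below and above the nearest S/L p10 library among called bins with 30 or more calls in each of the 4 libraries, and the 10 highest in MEK DKO among bins at 80% or more in each S/L p10 library. Promoters were named likewise, with called listed promoters, Map2k1 and Map2k2. The comparison, lists and rules were chosen with earlier results of these data known. The other 21 libraries were not used here.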

Additional observations from a re-analysis of the deposited data

Results flagged for a closer look

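The share of autosomal calls (reads counted at each CpG) on chromosome 13 in MEK DKO was 1.46 times the S/L p10 mean share, a signal in read depth. The methylation comparison is of levels, and depth enters it through the minimum of reads per CpG and the summed calls. In 12 windows of 10 Mb along that chromosome the ratio ran from 1.37 to 1.49, against 0.843 to 1.06 in 228 windows of the other autosomes. The 2i/L p10 and PD libraries stood at 1.01 to 1.02 on the whole chromosome and single S/L p10 libraries at 0.992 to 1.01 over all autosomes. The inhibitor libraries were less even elsewhere. PD stood at 1.12 on chromosome 8, and 2i/L p10 at 0.966, 0.967 and 0.937 on chromosome 17. Methylation there was like that of the other autosomes, at 24.2% in MEK DKO and 83.7% in S/L p10 in bins at 50% or more. What lies behind the read share was not tested.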

How the results depend on the processing

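No paired analysis was possible because MEK DKO shares no line with S/L p10, is 1 library and no test was made. Main values were a difference of -20.2 points, 55.7% lower and 0.00493% higher bins, and 29.1% of the S/L p10 share kept; the direction held in each setting run, and the cause of the shifts was not tested. With a minimum of 10, 20 and 1 reads the difference was -17.8, -14.8 and -24.4 points, and 29.5%, 41.4% and 29.6% was kept. Lower bins were 33.3% at 10 reads and 8.38% at 20 reads. At 20 reads 1002 bins were left, of which 64 were at 50% or more in each S/L p10 library. Higher bins were 0% at 20 reads and 0.0253% at 1 read. On CpGs shared by 8 libraries the difference was -19.7 points, as it was for the share of methylated calls. Bins of 5 or more CpGs gave 29.5% lower, 0% higher and 27.7% kept; averaged CpG levels gave 0% higher and 29.5% kept; bins shifted by 500 bases gave 0.00164% higher and 28.8% kept. Higher bins were 0.0214% at 10 points and 0% at 30 points. The kept share was 28.8% without the top 1% of CpGs by reads, 33.9% in bins at 80% or more and 28.8% without the deepest bins. Leaving out 1 S/L p10 library gave 28.9 to 29.1% kept, -20.3 to -20.1 points, 55.6 to 55.8% lower, 0.00329 to 0.00493% higher bins and 40 to 42 lower promoters. Alternatives for 2i/L p10, promoters and chromosome 13 were chosen after seeing the data. Against 2i/L p10, 3.84%, 25.6% and 2.28% of bins were lower, and 0.00903%, 0.710% and 0.0106% higher, with 10 reads, 10 points and 30 points; without single 2i/L p10 libraries these were 9.36 to 10.1% and 0.0620 to 0.0797%. Lower promoter regions were 41 (0.893%), against 109 (2.06%) with the looser placement at 6 covered CpGs and 25 (0.836%) with 10 reads. In each setting 0 were higher. Without chromosome 13 each result stayed within its S/L p10 spread or 1.5 times its count.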
